A study of Mus musculus with 3 samples.

Results

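Occupancy of PARP-1 was examined at 5 genes of chromatin regulators and of a transcriptional coactivator, Kdm2b, Mbd5, Auts2, Hmgb2 and Ncoa2. The members are the 7 sites that the authors' deposited table of differential sites assigns to these genes, of 1727 sites in all and of 770 sites in or near genes. The genes were selected on their measured values, since the table lists only sites whose read counts differed between cocaine and saline in the authors' test, so that difference is given here as a description and not as a test. All 7 sites had more PARP-1 reads after cocaine than after saline, by 2.85-fold to 6.75-fold, and no site of these genes was lower. Most listed sites were higher too, 92.9% of the 1727 and 97.1% of the 770 in or near genes. Kdm2b, Mbd5, Hmgb2 and Ncoa2 held 1 site each and Auts2 held 3.

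ChIP-seq counts the DNA fragments that an antibody to a chromatin protein, here PARP-1, pulls down from fixed tissue, here punches of the nucleus accumbens of C57BL/6 mice. The cocaine group received 20 mg/kg cocaine by intraperitoneal injection once a day for 7 days, the saline group received saline on the same schedule, and both were killed 30 min after the last dose. The labels name no genetic change in either group, and each replicate pooled tissue from 10 mice, so a value is an average over animals and over all cell types of the punch. The labels state 3 replicates per group, and the table carries values of 2 cocaine and 3 saline replicates, which are numbered here by their order in it. A DNA input sample had no column of its own in this table. ChIP reads do not report expression, so the tissue could not be checked against marker genes.

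PARP-1 is a nuclear enzyme that binds DNA breaks and nucleosomes and attaches chains of ADP-ribose to chromatin proteins, which can loosen chromatin and change transcription. The 5 genes encode proteins that act on chromatin in different ways. Kdm2b is a histone demethylase that binds unmethylated CpG islands and brings a Polycomb complex to them, and Auts2 belongs to another form of that complex which in neurons can activate genes. Mbd5 has a methyl-CpG-binding domain. Hmgb2 is a high-mobility-group protein that bends DNA without regard to its sequence, and Ncoa2 is a coactivator that nuclear hormone receptors recruit together with histone acetyltransferases. The comparison concerns where PARP-1 sits after repeated cocaine, and it says nothing about the level of the proteins these genes encode.

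The Hmgb2 site was the only one of the 7 near the start of the transcript assigned to it. Other starts of these genes were not checked. It covered the stretch from 1538 to 539 bases upstream of the start in mm9 (chromosome 8, 59989101 to 59990100, transcript NM_008252 on the plus strand) and is annotated in the table as a promoter within 3 kb. The promoter next to it, from 250 bases before to 50 bases after the start as given by RefSeq in another build (chr8:57511593-57511892, GRCm38.p6, plus strand), is shown because it is the start site that this PARP-1 site flanks. The capitals mark 4 matches to the CCAAT box and 1 match to the GC box.

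Hmgb2 promoter: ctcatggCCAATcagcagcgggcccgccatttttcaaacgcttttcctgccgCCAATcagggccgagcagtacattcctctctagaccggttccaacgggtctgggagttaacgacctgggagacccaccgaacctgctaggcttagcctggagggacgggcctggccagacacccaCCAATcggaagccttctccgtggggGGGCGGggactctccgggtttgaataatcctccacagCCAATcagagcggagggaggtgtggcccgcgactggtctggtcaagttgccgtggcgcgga

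Both strands were searched for the CCAAT box, spelled CCAAT, for the GC box, spelled GGGCGG, and for the TATA box, spelled TATAAA, and no matches overlapped. The CCAAT box was found at -243, -198, -73 and -11 and the GC box at -48, counted in bases from the start to the first letter of the match, all 5 on the plus strand. Of 32851 promoters of the same length, 37.4% held a CCAAT box, 35.7% held a GC box and 13.6% held a TATA box, which had no match here. The Hmgb2 promoter had a GC content of 62.0% and 20 CpG dinucleotides, against medians of 52.7% and 7 over all promoters. The PARP-1 site ended 539 bases before the start, so by the mm9 start it did not reach into this window. RefSeq promoters were matched by symbol for Hmgb2, Kdm2b and Mbd5, and those of Kdm2b and Mbd5 were not printed because their sites lay far inside the genes.

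Normalized read counts here are the authors' values, that is reads multiplied by 1 scaling step per library. At the Hmgb2 site they were 13.14 and 13.64 in the cocaine replicates and 2.12, 2.74 and 1.09 in the saline replicates. The groups did not overlap, and the lowest cocaine value exceeded the highest saline value by 10.4. The means were 13.4 ± 0.35 (SD, n = 2) and 1.98 ± 0.83 (SD, n = 3), a 6.75-fold difference. In whole reads these values were 16 and 12 against 2, 3 and 1. The fold computed from reads and these steps was 6.57, with an exact 95% interval of 2.67 to 19.4. Reads were summed over the replicates of each group, so the interval covers counting error only and no spread between replicates. Copies of 1 molecule made by PCR could not be told from separate molecules, so even the counting error may be understated. This was the highest ratio of the 7 sites, and 7 of the 748 higher sites in or near genes had a larger one. It came with a low saline count: 740 of those 748 sites had a higher saline mean and 708 had a higher cocaine mean. The 2 cocaine values equalled the lowest values of each library among the 1567 higher sites with a mean under 100 normalized reads, and 75 of those sites held this same pair, so their small SD is no sign of close replicates.

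**Figure D1:**
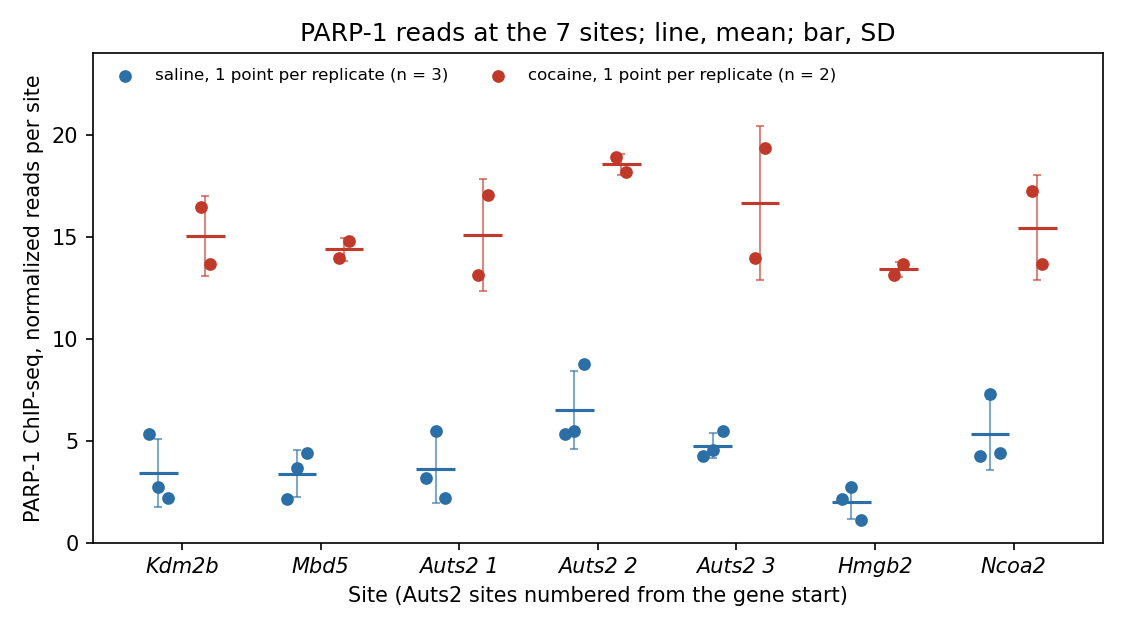
Normalized PARP-1 reads (y axis) at each of the 7 sites (x axis), with 1 point per replicate, a line at the group mean and a bar of 1 SD. At every site both cocaine replicates (red, n = 2) lie above all saline replicates (blue, n = 3), with the highest saline values at the second Auts2 site and the lowest at Hmgb2.

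The histone demethylase gene Kdm2b held a site inside the gene on chromosome 5 (123376201 to 123377200, transcript NM_001005866 on the minus strand), 61.8 kb from the start and at 52.5% of a 117.9 kb transcript. Its counts were 16.43 and 13.64 after cocaine and 5.31, 2.74 and 2.18 after saline. The 13.64 was again the lowest value of cocaine replicate 2 among higher sites with a mean under 100 normalized reads. The first saline replicate stood above the other 2, and the groups did not overlap. The means were 15.0 ± 1.97 and 3.41 ± 1.67, a 4.41-fold difference, on 32 and 10 reads in all. The counting interval of the fold ran from 2.16 to 10.3. Without saline replicate 1 the log2 ratio moved from 2.14 to 2.61. In the authors' deposited table this site had an enrichment over background of 5.87 after cocaine and 1.41 after saline, and 76 of the 748 higher sites in or near genes had a larger enrichment after cocaine. Its read count was ordinary by comparison, with 492 of the 748 sites having a higher cocaine mean.

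The methyl-CpG-binding domain gene Mbd5 held a site on chromosome 2 (49017301 to 49018400, transcript NM_029924 on the plus strand), 212.8 kb from the start and at 57.9% of a 367.6 kb transcript. The counts were 13.97 and 14.77 after cocaine and 2.12, 3.65 and 4.37 after saline. The means of 14.4 ± 0.57 and 3.38 ± 1.15 differed 4.25-fold, on 30 and 10 reads, with a counting interval of 2.01 to 9.69. Cocaine replicates were close to each other and near the lowest values of higher sites, while the saline values spanned a 2.06-fold range. The site was 1100 bp long, and within it the authors' deposited table gives a 1000 bp window with a log2 fold change of 2.18 against 2.09 for the whole site.

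Auts2, the gene of the Polycomb-associated protein, held 3 sites spread over a 1105 kb transcript (NM_177047, minus strand of chromosome 5), numbered here from its start. They lay 340.6, 701.5 and 942.4 kb from the start, or at 30.8%, 63.5% and 85.3% of the transcript, and their midpoints were 360.9 and 240.9 kb apart. None was near the start of this transcript.

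At the first Auts2 site (132677101 to 132678100) the counts were 13.14 and 17.04 after cocaine and 3.19, 5.47 and 2.18 after saline. The 13.14 was the lowest value of cocaine replicate 1 among higher sites with a mean under 100 normalized reads. The means were 15.1 ± 2.76 and 3.61 ± 1.69, a 4.18-fold difference, with a counting interval of 1.94 to 8.75. At the second (132316201 to 132317200) the counts were 18.89 and 18.18 after cocaine and 5.31, 5.47 and 8.73 after saline. This was the site with the most reads of the 7, with means of 18.5 ± 0.50 and 6.50 ± 1.93. Its 2.85-fold difference was the lowest ratio of the 7, with a counting interval of 1.63 to 5.30. At the third (132075301 to 132076300) the counts were 13.97 and 19.32 after cocaine and 4.25, 4.56 and 5.46 after saline. Here the saline values were close together and the cocaine values apart. In whole reads the cocaine replicates held 17 and 17, so that gap came from the scaling steps alone. The means were 16.6 ± 3.78 and 4.76 ± 0.63, a 3.50-fold difference with a counting interval of 1.79 to 6.90. Without cocaine replicate 2 the log2 ratio of this site moved from 1.81 to 1.55. No overlap of the groups was seen at any of the 3 sites. The counting intervals of the 3 folds overlapped widely, so no order among them could be resolved at this depth.

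Several sites in 1 gene were uncommon in the table: of 688 genes with a listed site, 635 had exactly 1 and 10 had 3 or more. Auts2 was also among the longest. Of 20 genes with a listed site and a transcript of at least 1000 kb, 12 had 1 site, and 3 had 3 or more, which were Auts2, Anks1b and Macrod2. Auts2 and Anks1b each held 3 higher sites, and Macrod2 held 4 sites of which 2 were higher. Of the 10 genes with 3 or more sites, 9 held higher sites only, so Auts2 was ordinary among them in this respect. Auts2 held 2.72 sites per Mb of transcript.

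**Figure D2:**
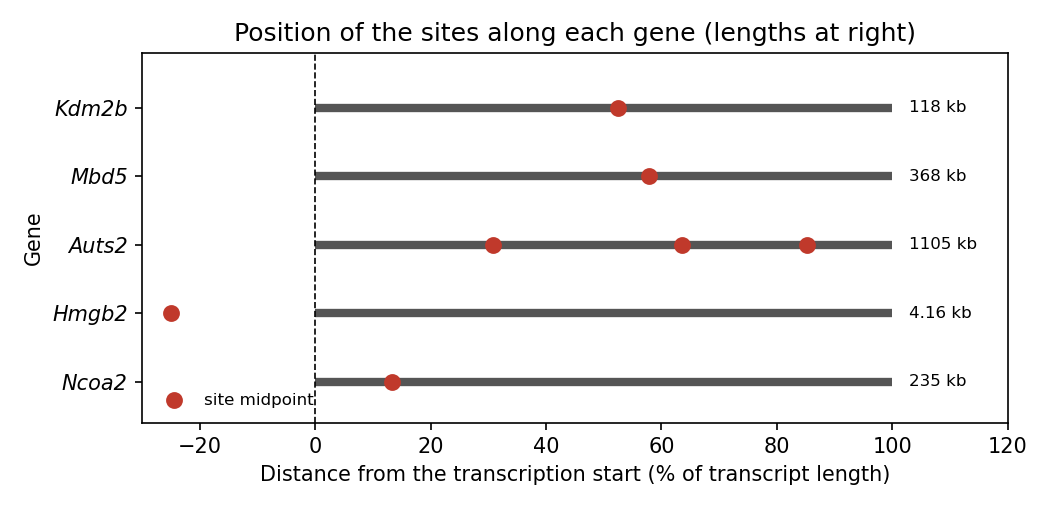
Position of each site midpoint (red points) along its transcript, as the distance from the transcription start in percent of the transcript length (x axis), with 1 bar per gene and its length in kb at the right. The Hmgb2 site lies before the start, and the other 6 lie inside the genes, from 13.3% (Ncoa2) to 85.3% (the third Auts2 site).

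The coactivator gene Ncoa2 held a site on chromosome 1 (13332401 to 13333600, transcript NM_008678 on the minus strand), 31.2 kb from the start and at 13.3% of a 234.9 kb transcript. Its counts were 17.25 and 13.64 after cocaine and 4.25, 7.29 and 4.37 after saline. As at Kdm2b and Hmgb2, 13.64 was the lowest value of cocaine replicate 2 among higher sites with a mean under 100 normalized reads. The second saline replicate was the highest, and the gap of 6.35 between the groups was the narrowest of the 7 sites. The means were 15.4 ± 2.55 and 5.30 ± 1.72, a 2.91-fold difference on 33 and 16 reads, with a counting interval of 1.55 to 5.65. In the authors' deposited table a 1000 bp window within this 1200 bp site had a log2 fold change of 1.96, against 1.54 for the whole site. The adjusted p in the authors' deposited table was 0.00673 for this whole site, the largest of the 7, and 0.000362 for Hmgb2, the smallest.

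All 7 sites had every cocaine replicate above every saline replicate, where 92.2% of the 1727 listed sites did. Higher group means after cocaine were found at 92.9% of the listed sites. limma, fitted to log2(value + 1) over all 1727 sites, gave a higher value after cocaine with a Benjamini-Hochberg adjusted p under 0.05 at all 7, and at 90.2% of the listed sites. These counts repeat the contrast by which the sites were listed and are read no further. limma's log2 differences ran from 1.41 ± 0.31 (SE) at Ncoa2 and 1.41 ± 0.29 at the second Auts2 site to 2.31 ± 0.32 at Hmgb2. The limma count was 5 of 7 without cocaine replicate 1 and 0 of 7 without cocaine replicate 2, where all 7 had an unadjusted p under 0.05. Both of those fits had a single cocaine sample, assumed to vary like the saline samples.

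**Figure D3:**
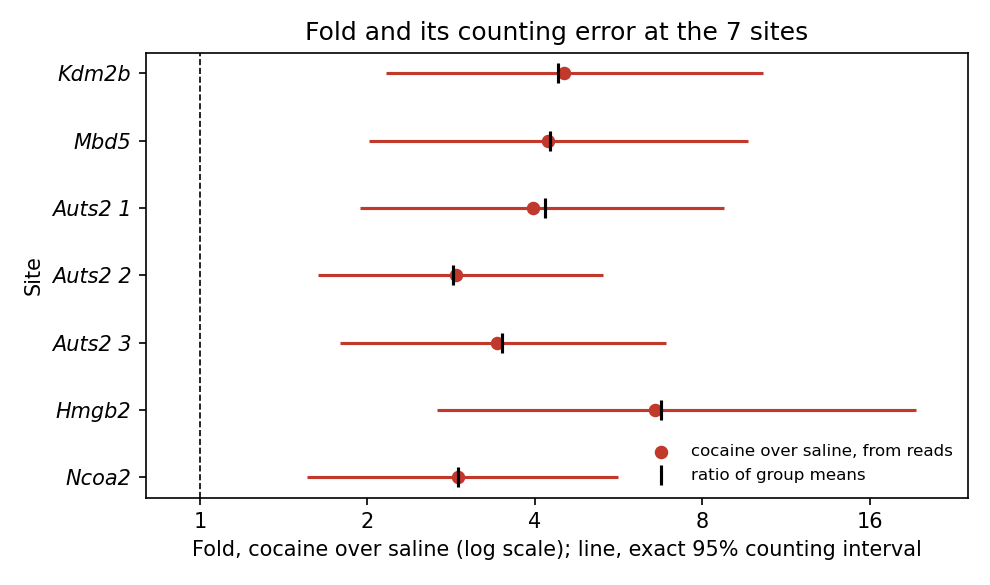
Fold of cocaine over saline at each of the 7 sites on a log axis. Points were computed from whole reads, summed over replicates, and the scaling steps. Lines give the exact 95% interval (counting error only) and black ticks the ratio of group means. Every interval lies above 1, from a lowest bound of 1.55 at Ncoa2 to a highest bound of 19.4 at Hmgb2, and all overlap one another. The sites were listed because these same reads differed, so intervals above 1 are a description and no independent support.

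Among themselves the 7 sites differed more in ratio than in their counts after cocaine. Cocaine means ran from 13.4 to 18.5 normalized reads and saline means from 1.98 to 6.50. Among higher sites with a mean under 100 normalized reads, no cocaine value was below 13.14 in replicate 1 or 13.64 in replicate 2. Cocaine means were thus bounded from below among the listed higher sites, and their narrow range is read no further. The median log2 ratio was 2.06, against 1.85 over the 748 higher sites in or near genes, whose middle 50% lay between 1.70 and 2.00. Hmgb2, Kdm2b, Mbd5 and the first Auts2 site lay above that range, the second Auts2 site and Ncoa2 below it and the third Auts2 site within it. The second cocaine replicate was the higher of the pair at 4 of the 7 sites and at 60.8% of the higher sites in or near genes.

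**Figure D4:**
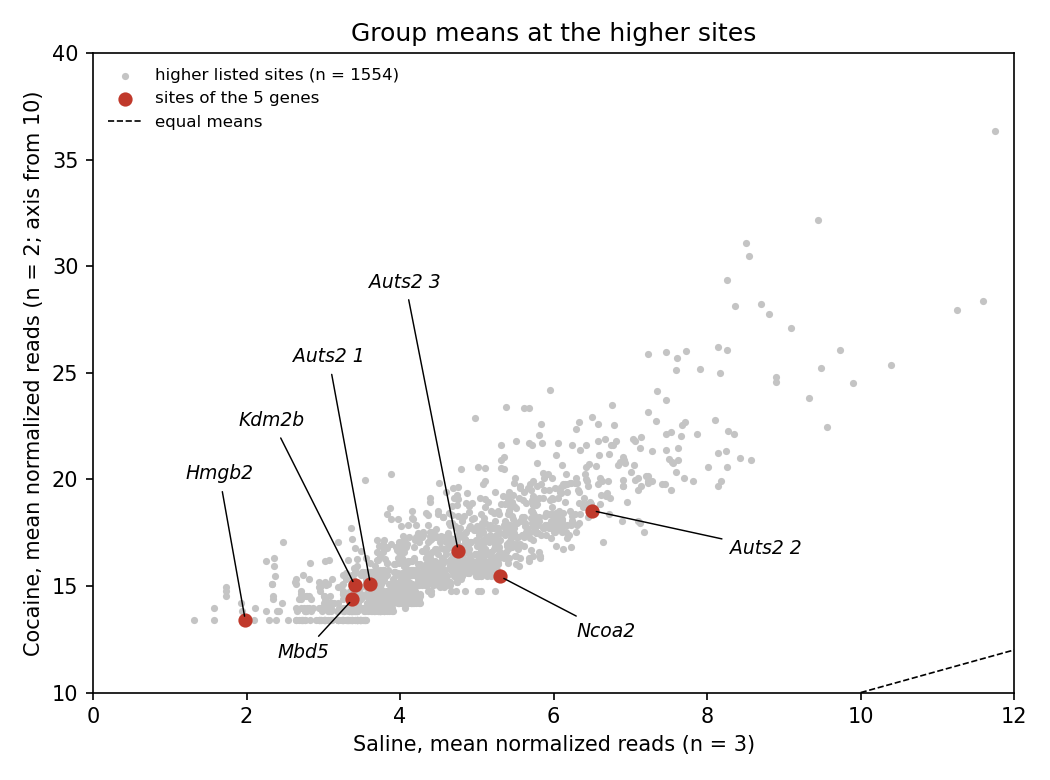
Mean normalized reads after saline (x axis, n = 3) and after cocaine (y axis, n = 2, starting at 10) at 1554 higher sites (grey; saline means up to 12 and cocaine means up to 40) with the 7 sites of the 5 genes in red. Hmgb2 lies at the low end of both axes and the second Auts2 site at the higher end of the members, and all 7 lie within the cloud of other sites.

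The authors' enrichment over background, a ratio given once per group and so without an error, separated the sites in another way. In the authors' deposited table it was under 1 after saline and above 1 after cocaine at 5 of the 7 sites, and 62.7% of the 748 higher sites in or near genes showed the same. At Hmgb2 it went from 0.45 to 2.91, at Mbd5 from 0.85 to 3.51, at Ncoa2 from 0.98 to 2.74, and at the first and the third Auts2 site from 0.82 to 3.28 and from 0.69 to 2.32. Kdm2b and the second Auts2 site had group values already above background after saline, at 1.41 and 1.64, and reached 5.87 and 4.53 after cocaine. Dividing the authors' group averages by these enrichments gives the background each was set against. It was 2.56 normalized reads at Kdm2b after cocaine and 7.17 at the third Auts2 site, with the other 5 between 4.09 and 5.64. Kdm2b, with the highest enrichment of the 7, therefore had the lowest background and not the most reads. After saline its background was 2.42 normalized reads, against replicate values of 5.31, 2.74 and 2.18, so the third replicate lay below it. At the second Auts2 site the saline background was 3.96, below all saline replicates.

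**Figure D5:**
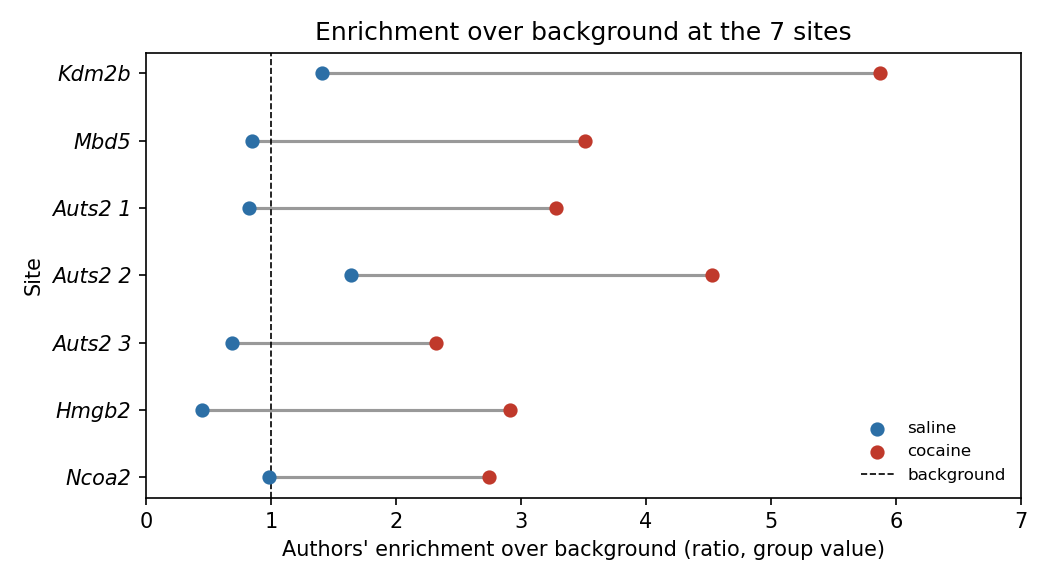
The authors' enrichment over background (x axis, ratio) at the 7 sites after saline (blue) and cocaine (red), joined by a line, with background at the dashed line. Saline points lie below 1 at 5 sites and above it at Kdm2b and the second Auts2 site, and all cocaine points lie between 2.32 and 5.87.

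The surroundings of the sites differed. Kdm2b and Ncoa2 had no other listed site within 1 Mb, and the nearest on the chromosome lay 2149 and 2422 kb away. The Hmgb2 site had another higher site 11.7 kb away, outside genes, with means of 17.4 after cocaine and 5.03 after saline, and 4 listed sites within 1 Mb, all higher. Mbd5 had 2 within 1 Mb, both higher. Around the 3 Auts2 sites, 3, 5 and 6 other sites lay within 1 Mb, Auts2's own included, and all were higher. Some sites are counted more than once there. Since 92.9% of all listed sites were higher, the direction of these neighbours is read no further.

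Other genes of the same functions were taken from 9 lists with 250 genes in all. Of these, 10 genes (4%) held a listed site, where 3.07% of the 21900 protein-coding genes of RefSeq did. The 10 include the 5 chosen genes, which were taken because they held a site. That raises the 4%, so these shares are not compared. Besides the chosen genes, 5 others held 6 sites, all higher, where 92.9% of the listed sites and 97.1% of the 770 in or near genes were. At all 6 every cocaine replicate lay above every saline replicate, where 92.2% of the listed sites showed this. Their median log2 ratio was 1.86, against 1.85 over the 748 higher sites in or near genes. They were Hdac4, Jarid2, Smyd3, Suv420h1 and Whsc1, and each site lay inside its gene. The list of 43 Polycomb genes held 5 sites in Auts2, Kdm2b and Jarid2, the last of which encodes a partner of the Polycomb methyltransferase complex. Jarid2 had 15.61 and 13.64 normalized reads after cocaine and 3.19, 4.56 and 4.37 after saline, a 3.62-fold difference.

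The 36 histone methyltransferase genes held 4 sites in 3 genes. Suv420h1, which encodes a methyltransferase of histone H4, had 14.79 and 18.18 normalized reads after cocaine and 4.25, 4.56 and 4.37 after saline. Smyd3, the gene of a SET and MYND domain methyltransferase, held 2 sites, with 3.98-fold and 3.06-fold differences at 21.1 and 462.4 kb from its start. Whsc1, the gene of a methyltransferase of histone H3, had the lowest ratio of the 6 other sites, 2.81-fold, with means of 16.3 ± 1.01 and 5.82 ± 1.47. Among 27 genes of histone deacetylases and their corepressors, Hdac4 held the only site. Its normalized cocaine values of 13.14 and 21.59 were far apart and its saline values of 4.25, 4.56 and 5.46 close. The scaling widened the cocaine gap, because 1 read counted as 0.821 in replicate 1 and as 1.14 in replicate 2. The 13.14 was again the lowest value of cocaine replicate 1 among higher sites with a mean under 100 normalized reads. Hdac4 had an enrichment in the authors' deposited table of 8.48 after cocaine and 2.41 after saline, above those of all 7 member sites.

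A listed site was held by 1 of 24 histone demethylase genes (Kdm2b), 1 of 23 genes of DNA methylation and methyl-CpG binding (Mbd5), 1 of 22 genes of high-mobility-group proteins (Hmgb2) and 1 of 31 genes of coactivators and histone acetyltransferases (Ncoa2). The 45 chromatin remodeller genes held 0 sites, and so did the 8 closest paralogs of the members (Kdm2a, Mbd6, Fbrs, Fbrsl1, Hmgb1, Hmgb3, Ncoa1 and Ncoa3). With 3.07% of protein-coding genes holding a site, counts of 0 or 1 in lists of this size are read no further. A gene without a listed site may still bind PARP-1 at the same level in both groups, since only sites that differed were listed.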

How the data were processed

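PARP-1 ChIP-seq libraries were made, per the labels' protocols, with the antibody ab6079 from fragments of 250 to 350 bp, 21 PCR cycles and reads of 100 bp. The submitters' processing notes name mm9 and CASAVA 1.8.2, and no source used here gives the aligner, the duplicate handling or the listing threshold. The deposited table names diffReps and a negative binomial test. Its largest window p-value was 9.95e-05, and the largest of the members was 7.45e-05. Normalized read counts are deposited with several replicates in a cell, per the file headers. The averages are deposited as a signal, the mean of a group. Enrichments are deposited as a ratio to a background that the authors set. The deposited fold changes are log2, and the p-values are the authors' own. The transcript ends and annotated distances are those of the table. "Control" was taken as saline from the design text.

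Each library's values were multiples of a single step, 100.0% of 8635 values within 0.1 read, which returned whole reads. That step was 0.821 and 1.14 in cocaine and 1.06, 0.912 and 1.09 in saline libraries, which held 82360, 61292, 47757, 55084 and 46406 reads over the listed sites. Total library depth is unknown here. Fold intervals are exact Clopper-Pearson intervals of the cocaine share of reads, summed over the replicates of each group and scaled by these steps. log2(value + 1) was fitted with limma 3.58.1 in R 4.3.3 over all 1727 sites, with Benjamini-Hochberg adjustment, and the fit was tested on simulated data; fold changes on that scale understate changes at low counts. Nothing says whether pools came from separate cohorts, so p-values measure only the spread between these samples. Members, lists and tests were chosen with earlier results of these data known. All member sites were described. Every list gene with a site was named. Alternatives were another pseudocount, 2 filters, 2 scalings and leaving out each replicate.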

Additional observations from a re-analysis of the deposited data

How the results depend on the processing

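No paired analysis was possible because the labels give no replicate numbers. The median log2 ratio of the 7 sites, 2.06, ranged from 1.84 to 2.02 when each replicate was left out, and the number of sites passing limma's test from 0 to 7, with 0 only without cocaine replicate 2. All 7 sites kept groups that did not overlap under both other scalings. Under the authors' scaling, 92.2% of the 1727 listed sites had every cocaine replicate above every saline replicate. Leaving out a replicate cannot make separate groups overlap, so it was no check of this count. Keeping sites with a mean of at least 10 normalized reads left 1 member, the second Auts2 site, which passed, with a log2 ratio of 1.51; that filter removes sites low in 1 group. Of 64 values of single sites under alternatives, 62 moved by less than the spread between replicates, 2 moved by more (named in the report) and 0 reversed, over a range of 1.36 to 3.06. The planned edgeR test on recovered reads was not run. Counts of 6 to 19 saline reads per site limit the precision of every fold.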

Other observations

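The sites of other genes with read patterns most like those of the members were found by the Euclidean distance of log2(value + 1) over the 5 libraries. The Mbd5 site had the same reads in all 5 libraries as a site of Mrc2, and the Hmgb2 site the same as a site of Zfp541. For 4 of the other members the nearest were Dtna (Kdm2b, distance 0.11), Hs3st5 (the second Auts2 site, 0.11), Snx32 (the Auts2 site farthest from the start, 0.08) and Il7 (Ncoa2, distance 0.17). Of the 1658 listed sites with a mean under 100 normalized reads, 315 (19.0%) shared all 5 read counts with at least 1 other site, so identical patterns are common at these counts.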
